A study of Mus musculus with 6 samples.

Results

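Histone lysine methyltransferases, histone lysine demethylases and the protein partners of DOT1L were examined in mouse CD8+ T cells with and without a Dot1l knockout label. The set was a list of 52 genes given by name, and each measured gene was read by the probe set that names it alone, taking the one with the highest mean over the 6 arrays where there were several. Of the 52 genes 49 were measured, among 22180 genes in all. Ash1l, Suv39h1 and Suv39h2 were not analysed here. Whole-transcript Affymetrix arrays gave 1 value per gene and sample, 3 for cells labelled wild type and 3 for cells labelled Dot1l knockout, all on the C57BL/6 strain. Mice with Dot1l flox/flox alleles had been crossed with CD4-Cre mice, in which Cre is made in developing T cells that pass through a CD4-expressing stage. Cells came fresh from peripheral lymph nodes and spleen by a magnetic isolation kit. The labels give neither age nor sex of the animals, nor whether wild type animals carried floxed alleles or Cre. Nor do they state that arrays of a group represent different animals. The p-values therefore reflect the spread among these arrays alone, and that spread may be technical.

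The enzymes in this set write and erase methyl groups on lysines of histones. DOT1L is the methyltransferase of H3K79 and, unlike most of the others, has no SET domain. It is brought to transcribed genes by the YEATS-domain proteins encoded by Mllt1 and Mllt3, and by the products of Mllt10 and Mllt6. Some of these proteins also sit in the super elongation complex built on Aff1 and Aff4. The KMT2 and SETD1 enzymes place H3K4 methylation at promoters and enhancers, SETD2 and the NSD family methylate H3K36 in transcribed genes, and SETDB1, EHMT1 and EHMT2 methylate H3K9 in silent chromatin. Demethylases of the KDM1 class use a flavin cofactor, and the JmjC enzymes use iron and 2-oxoglutarate.

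Promoter windows are shown for the targeted gene, for the gene of this set with a large rise and a listed start, and for the gene whose difference was the lowest in p among those that did not pass. Windows from RefSeq (GRCm38.p6) matched 36 of the 49 genes by symbol, and each holds the 250 bases before the start that this table uses. Capitals mark matches on either strand to the GC box of SP factors (GGGCGG), to the CCAAT box, to the TATA box written as TATAAA, to the E-box with letters CACGTG, to the ETS core with letters CCGGAAG and to a STAT site of the form TTCNNNGAA. The Dot1l window is chr10:80754953-80755202 on the plus strand, the Kmt2d window chr15:98871206-98871455 on the minus strand and the Phf2 window chr13:48870886-48871135 on the minus strand.
Dot1l: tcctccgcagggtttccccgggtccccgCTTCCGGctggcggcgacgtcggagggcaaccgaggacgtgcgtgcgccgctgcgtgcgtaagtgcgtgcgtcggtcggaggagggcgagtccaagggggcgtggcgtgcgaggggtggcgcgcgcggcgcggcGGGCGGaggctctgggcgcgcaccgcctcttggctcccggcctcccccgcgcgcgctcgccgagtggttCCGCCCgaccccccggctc
Kmt2d: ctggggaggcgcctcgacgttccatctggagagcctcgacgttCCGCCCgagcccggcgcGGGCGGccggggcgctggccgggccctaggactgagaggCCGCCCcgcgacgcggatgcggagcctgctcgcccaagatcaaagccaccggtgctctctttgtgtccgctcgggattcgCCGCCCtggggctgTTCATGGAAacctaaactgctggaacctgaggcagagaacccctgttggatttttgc
Phf2: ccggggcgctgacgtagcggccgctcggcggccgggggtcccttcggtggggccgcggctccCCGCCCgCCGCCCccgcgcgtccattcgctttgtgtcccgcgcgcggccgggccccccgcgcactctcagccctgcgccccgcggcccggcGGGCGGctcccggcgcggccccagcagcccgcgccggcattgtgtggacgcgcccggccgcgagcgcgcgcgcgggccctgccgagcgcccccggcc
GC boxes numbered 2 in the Dot1l window, 4 in the Kmt2d window and 3 in the Phf2 window, with 1 ETS core in Dot1l and 1 STAT site in Kmt2d and no matches that overlap each other. A GC box was present in 26 of the 36 windows (72.2%), against 58.3% of 8959 windows of genes above background level and 32.9% of all 27025 windows. A TATA box was in 0 of the 36 (against 6.69% and 13.0%). The STAT site was in 3 (8.33%, against 5.96% and 7.18%), the CCAAT box in 14 (38.9%, against 36.3% and 34.5%), the E-box in 2 (5.56%, against 8.55% and 6.05%) and the ETS core in 4 (11.1%, against 14.2% and 7.05%). The windows of the set were rich in CpG, with a median of 22.5 per window against 16.0 for genes above background and 6.0 for all windows. These matches describe letters in the windows and were not tested as binding sites.

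The cells carried the defining transcripts of CD8+ T cells on every array. Cd3e read 11.7 to 11.9, Cd8a 10.9 to 11.2 and Cd8b1 11.1 to 11.4 on the log2 scale, whereas Cd4 read 3.60 to 4.03. The level of olfactory and vomeronasal receptor genes served as a guide to background, with a 95th percentile of 3.84, and all 49 members lay above it on all 6 arrays. No count depth exists for arrays, and their number limits the precision. Arrays correlated over genes at r of 0.989 to 0.995 within groups and 0.984 to 0.987 between groups. Xist, the transcript that silences the female X chromosome, read 6.91 on wild type array 3 and 2.65 to 3.28 on the other 5 arrays, while the Y-linked genes Kdm5d, Uty and Eif2s3y were above background on all 6.

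Setd1b and Kmt2d, which encode methyltransferases of H3K4, rose in knockout-labelled cells, and no member fell. Genes were called when their adjusted p was under 0.05 in limma's moderated test with Benjamini-Hochberg adjustment over all 22180 genes. The 2 genes are 4.08% of the 49 members. Over all genes 5.50% passed, and 9.95% of the 11389 genes with a mean level above the background guide (7.87% higher and 2.08% lower), so the share of the set was at or below that of other genes. In all, 4.30% of genes rose and 1.20% fell as deposited, a split of 954 higher to 266 lower that became 625 to 470 after another quantile normalization. Differences in the set were small: the median size was 0.13 on the log2 scale, against 0.17 for genes above background. The 95% interval excluded a 2-fold change either way for 48 of 49 members, the exception being Kmt2d, and it excluded a 1.5-fold change for 40.

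**Figure D1:**
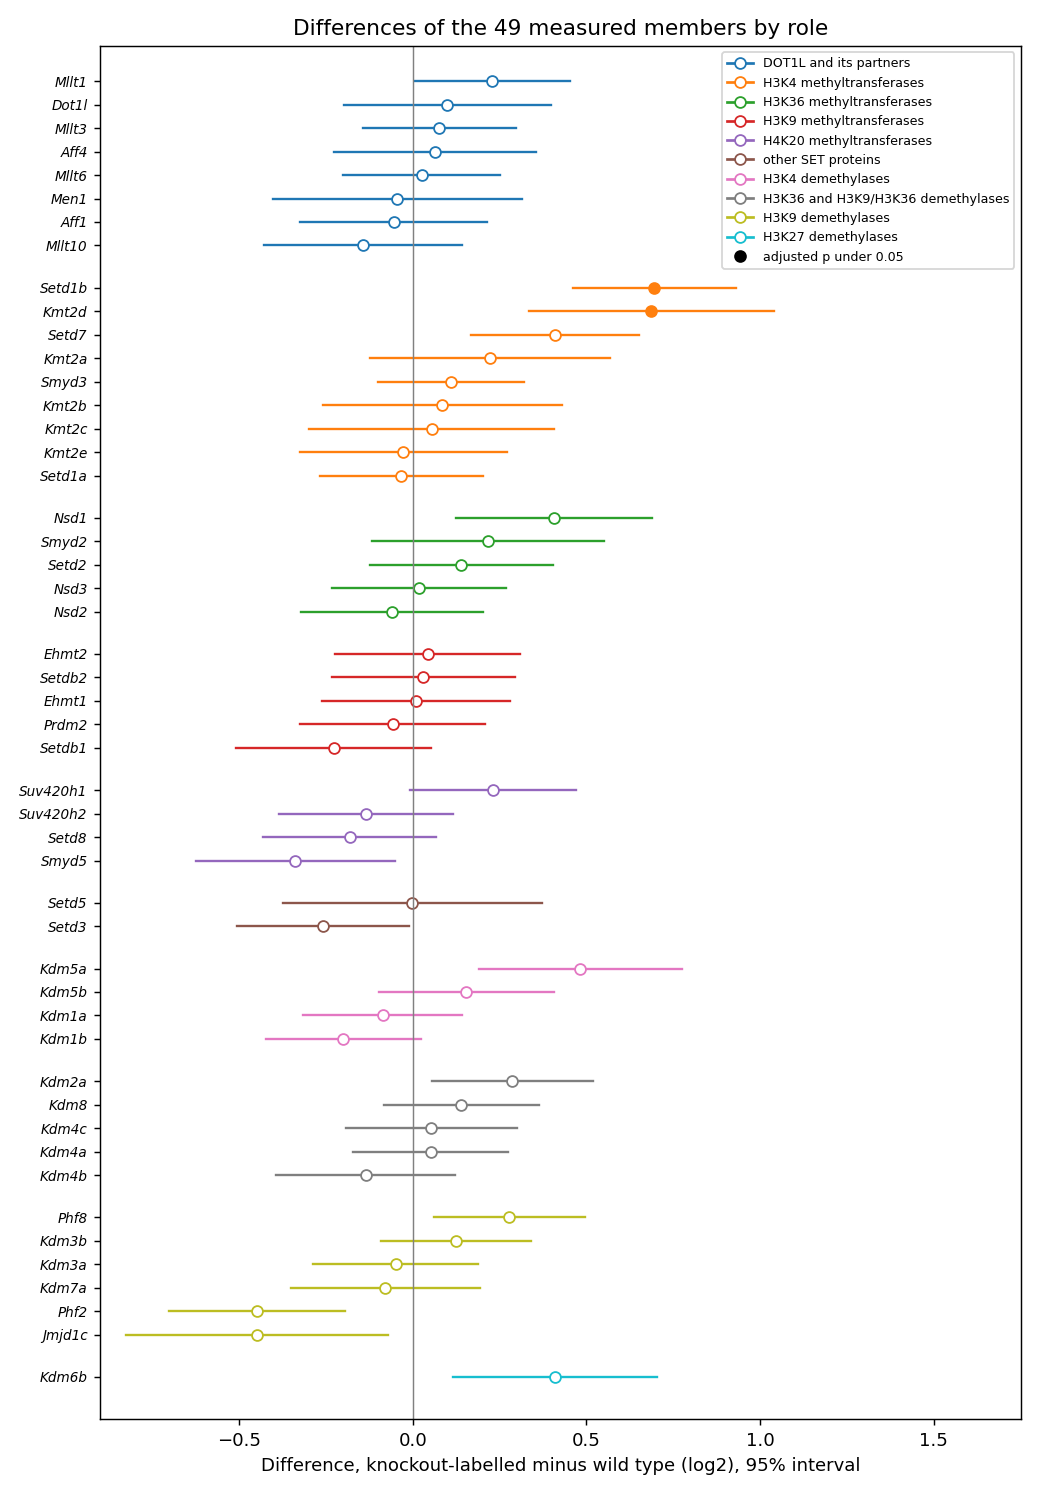
Log2 difference between knockout-labelled and wild type arrays (n = 3 each) for the 49 measured genes, grouped by role, with bars for the 95% interval of limma and filled points for adjusted p under 0.05. Setd1b (0.70) and Kmt2d (0.69) are the filled points, and the intervals of DOT1L and its partners all lie between -0.43 and 0.45.

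Among DOT1L and its partners 0 of 8 passed, where 5.50% of all genes and 9.95% of genes above background did. In limma 1 of the 8 had an unadjusted p under 0.05, against 18.0% and 27.4%. With 8 genes, these counts do not set the group apart from other genes. The same shares stand beside the counts of each small group below. Dot1l itself read 7.46, 6.96 and 7.18 on wild type arrays 1 to 3 and 7.31, 7.26 and 7.33 on the knockout-labelled ones. The knockout-labelled values lay inside the wild type range. The difference was 0.10 (SE 0.13, 95% interval -0.20 to 0.40, adjusted p = 0.765). Leaving out 1 array moved it between -0.02 (without wild type array 2) and 0.23 (without wild type array 1). The exon removed from the floxed allele is not given here and the table does not say which exons the probe set covers, so this value does not check the labels.

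The YEATS-domain partners differed little. Mllt1, which encodes ENL, read 7.03, 7.06 and 6.97 in wild type and 7.35, 7.18 and 7.23 in knockout-labelled arrays. All knockout-labelled values were above the wild type ones, with a difference of 0.23 (SE 0.10, adjusted p = 0.266) that did not pass. Its relative Mllt3, which encodes AF9, read 8.47, 8.50 and 8.40 against 8.45, 8.57 and 8.57, with overlapping groups (0.08, 95% interval -0.15 to 0.30).

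Mllt10, encoding the cofactor AF10 that DOT1L needs for higher methylation states, read 8.20, 7.80 and 8.0 in wild type and 7.74, 7.86 and 7.96 in knockout-labelled arrays. The groups overlapped (-0.14, 95% interval -0.43 to 0.14). Its paralogue Mllt6 read 7.38, 7.24 and 7.35 against 7.28, 7.34 and 7.42, a difference of 0.02. The scaffold genes of the super elongation complex also overlapped between groups. Aff1 read 8.24, 7.97 and 8.26 against 7.96, 8.20 and 8.14 (-0.06), and Aff4 read 8.79, 8.54 and 8.92 against 8.67, 8.95 and 8.82 (0.06). Men1, which encodes menin, a partner of the KMT2A and KMT2B enzymes, read 7.24, 7.77 and 7.14 in wild type and 7.38, 7.29 and 7.35 in knockout-labelled arrays (-0.04, 95% interval -0.40 to 0.31). Wild type array 2 was the high one for Men1, in contrast to most of the set. For all 8 genes the interval excluded a 1.5-fold change, with adjusted p from 0.266 to 0.935.

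**Figure D2:**
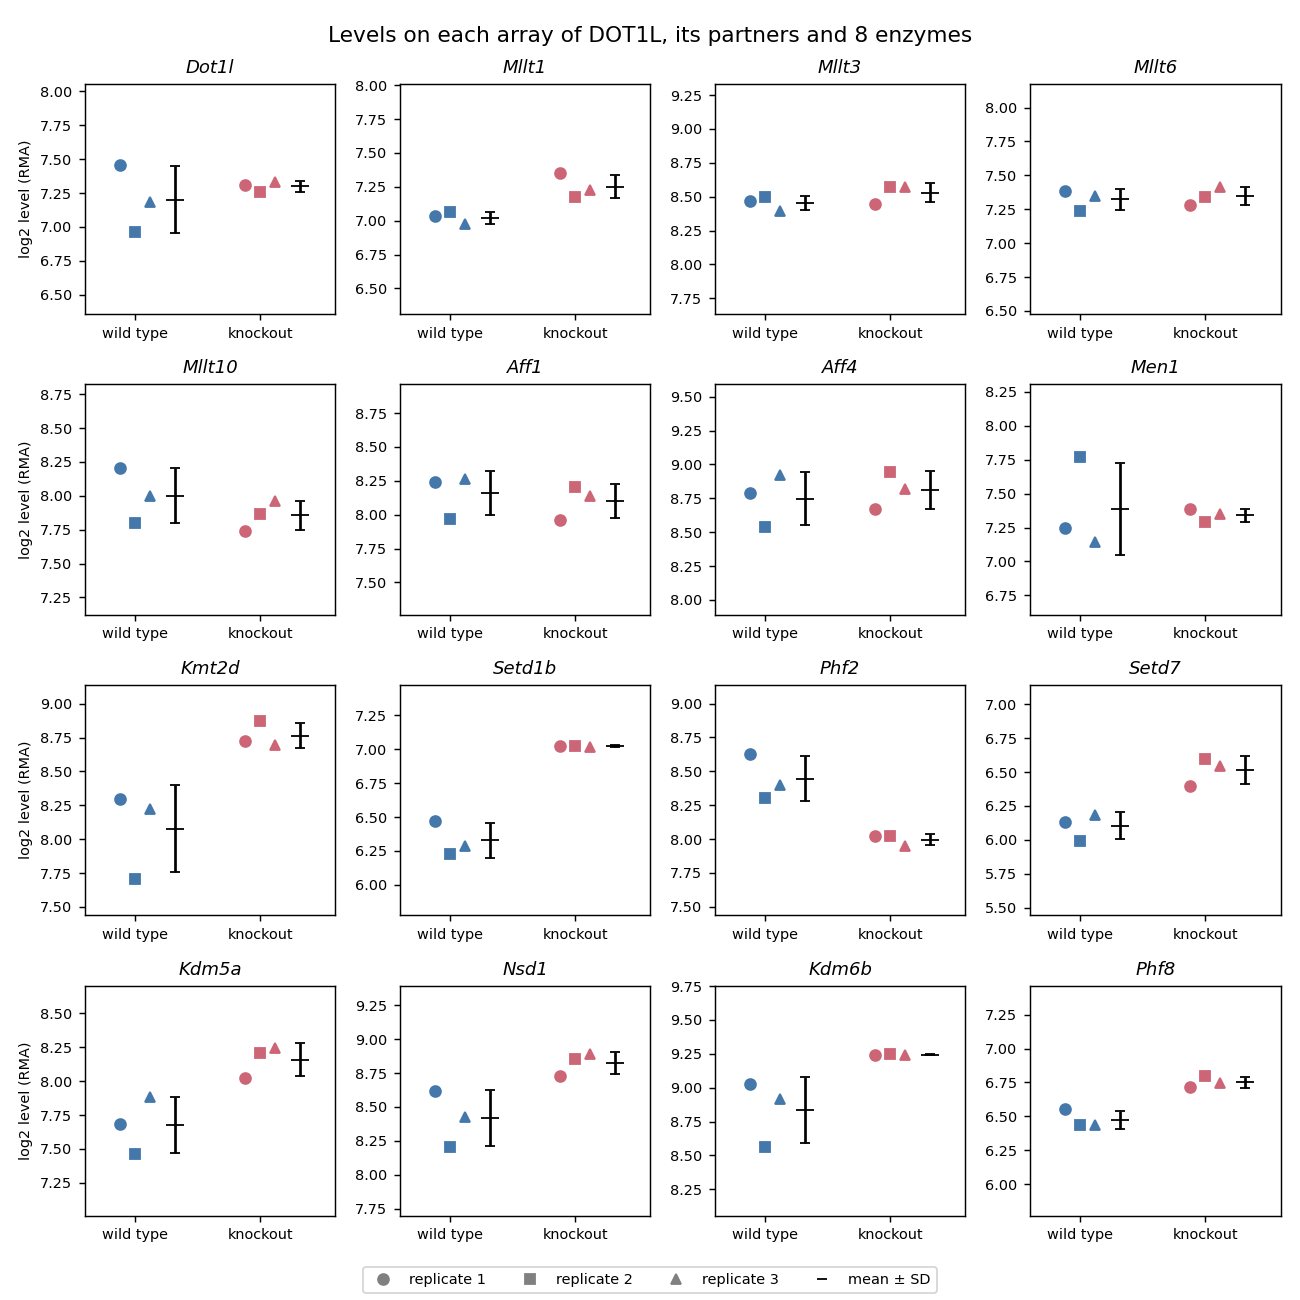
Deposited log2 level on each array of Dot1l, its 7 partners, Kmt2d, Setd1b and the 6 genes with the smallest p that did not pass, with symbols for replicates and bars for mean ± SD (n = 3 per group, each panel spanning the same log2 range). Knockout-labelled values lie above all wild type values for Mllt1, Kmt2d, Setd1b, Setd7, Kdm5a, Nsd1, Kdm6b and Phf8, and below them for Phf2. For the other 7 genes the ranges of the groups overlap.

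Of the 9 genes grouped here as H3K4 methyltransferases 2 rose (22.2%), 0 fell and 7 did not pass. Over all genes 4.30% rose, and 7.87% of genes above background. The grouping is by assigned role, and the enzyme activity of each product was not measured. The median difference of the 9 genes was 0.11, beside -0.01 for all genes and 0.04 for genes above background, and it was 0.06 without wild type array 2. Setd1b, the catalytic subunit of one of the SET1 complexes that methylate H3K4 at promoters, read 6.47, 6.22 and 6.29 in wild type and 7.03, 7.03 and 7.01 in knockout-labelled arrays. The knockout-labelled values were nearly equal, and all lay above the wild type ones. The rise was 1.62-fold (0.70, SE 0.10, adjusted p = 0.00470). Kmt2d, which encodes an enzyme that monomethylates H3K4 at enhancers, read 8.30, 7.71 and 8.22 in wild type and 8.72, 8.87 and 8.70 in knockout-labelled arrays. Its groups did not overlap either, and wild type array 2 was the low one. The rise was 1.61-fold (0.69, SE 0.16, adjusted p = 0.0349).

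The rise of Setd1b passed in each fit that left out 1 array (adjusted p from 0.00575 to 0.0267), whereas Kmt2d passed without wild type array 1 or 2 and not without wild type array 3 or knockout-labelled array 1, 2 or 3 (adjusted p = 0.0619, 0.0981, 0.132 and 0.102). Neither passed when each array's median over the probe sets without a gene symbol entered the fit. That median was 3.34 to 3.49 in wild type and 3.55 to 3.63 in knockout-labelled arrays, so it moved with the groups, and the differences became 0.10 for Kmt2d (adjusted p = 0.863) and 0.52 for Setd1b (adjusted p = 0.230).

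Setd7, which encodes a monomethyltransferase of H3K4 and of non-histone proteins, came next in this group. It read 6.13, 5.99 and 6.19 in wild type and 6.40, 6.59 and 6.55 in knockout-labelled arrays, without overlap (0.41, SE 0.11, adjusted p = 0.0616). With robust, trended variances Setd7 passed (adjusted p = 0.0494), as it did when dim genes below the median level were left out (adjusted p = 0.0298). These were its 2 passes among 16 alternative fits, and 0 of the 6 fits that left out 1 array passed. Adjusted p over the 16 reached 0.718, with the covariate. The closest relatives of the risen genes overlapped between groups. Setd1a, the paralogue of Setd1b, had a difference of -0.03 (95% interval -0.27 to 0.20), and Kmt2c, the paralogue of Kmt2d, of 0.05 (95% interval -0.30 to 0.41). The difference between paralogues was not tested. Kmt2a (0.22), Kmt2b (0.08) and Kmt2e (-0.03) also overlapped, and Smyd3 (0.11) did not overlap but had a small difference.

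Of the 5 measured H3K36 methyltransferase genes 0 passed. Nsd1, an enzyme that dimethylates H3K36, read 8.62, 8.20 and 8.43 in wild type and 8.73, 8.85 and 8.89 in knockout-labelled arrays. These groups did not overlap (0.41, SE 0.13, adjusted p = 0.112). Nsd1 passed in 1 of 16 alternative fits, that with trend and robust fitting (adjusted p = 0.0404). It passed in 0 of the 6 fits that left out 1 array. With the median of probe sets without a gene symbol as covariate, its difference was 0.003 (adjusted p = 0.997). Setd2, the enzyme that trimethylates H3K36, differed by 0.14 with overlap (95% interval -0.12 to 0.40). Nsd2 (-0.06), Nsd3 (0.02) and Smyd2 (0.22) overlapped as well.

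In the groups that methylate H3K9 and H4K20 again 0 of 5 and 0 of 4 measured genes passed. Setdb1, which silences retroelements, had the largest H3K9 difference, at -0.23 with overlapping groups (95% interval -0.51 to 0.05). Setdb2 (0.03), Ehmt1 (0.01), Ehmt2 (0.04) and Prdm2 (-0.06) stayed within 0.06 of equality. The H4K20 enzymes pointed different ways. Suv420h1, which adds the second and further methyl groups to H4K20, read higher in all knockout-labelled arrays (0.23, adjusted p = 0.296), and Setd8, the monomethyltransferase, lower in all of them (-0.18, adjusted p = 0.447). Suv420h2 differed by -0.13 with overlap. Smyd5 had the largest difference among these genes, with 5.83, 5.77 and 5.88 in wild type and 5.67, 5.24 and 5.56 in knockout-labelled arrays (-0.34, adjusted p = 0.194). Of the remaining SET-domain genes, Setd3, which encodes an actin histidine methyltransferase, was lower without overlap (-0.26, adjusted p = 0.254) and Setd5 differed by less than 0.01.

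Among the 16 demethylase genes 0 passed, and Phf2 came closest. Phf2 encodes a JmjC protein that acts on H3K9, and it read 8.63, 8.31 and 8.40 in wild type and 8.02, 8.02 and 7.95 in knockout-labelled arrays. All knockout-labelled values were below the wild type ones (-0.45, SE 0.11, adjusted p = 0.0527). It passed in 7 of 16 alternative fits, with adjusted p from 0.0148 to 0.185 over the 16 and a difference between -0.67 and -0.36. Another gene of the H3K9 group, Jmjd1c, read 8.58, 8.05 and 8.62 in wild type and 7.75, 8.10 and 8.06 in knockout-labelled arrays. The groups overlapped only through wild type array 2 (-0.45, SE 0.17, adjusted p = 0.191). Without that array, picked because it made the overlap, the difference was -0.63 (adjusted p = 0.0309). Leaving out any other single array, Jmjd1c did not pass (adjusted p from 0.265 to 0.457, differences from -0.51 to -0.34).

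Other demethylase genes read higher in knockout-labelled arrays. Kdm5a, an H3K4 demethylase, read 7.68, 7.47 and 7.88 in wild type and 8.02, 8.21 and 8.25 in knockout-labelled arrays, without overlap (0.48, SE 0.13, adjusted p = 0.0686). Kdm5a passed with robust, trended variances (adjusted p = 0.0258) and when genes below the median level were left out (adjusted p = 0.0382). Those were its 2 passes among 16 alternative fits, with 0 of 6 when 1 array was left out. Adjusted p over the 16 reached 0.839, with the covariate. Kdm6b, which removes H3K27 methylation and is induced by activation, read 9.03, 8.56 and 8.92 against 9.24, 9.25 and 9.24. The knockout-labelled values were nearly identical and above all wild type ones (0.41, SE 0.13, adjusted p = 0.124). Trend and robust fitting gave an adjusted p of 0.0432, the 1 pass of Kdm6b in 16 alternative fits. It passed in 0 of the 6 fits that left out 1 array. With the covariate its difference was 0.006 (adjusted p = 0.994).

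Phf8, an X-linked gene for a demethylase of H3K9 and H4K20, read 6.55, 6.43 and 6.43 in wild type and 6.72, 6.80 and 6.74 in knockout-labelled arrays. The groups did not overlap (0.28, SE 0.10, adjusted p = 0.158), and the difference was 0.26 without wild type array 3, the array with high Xist. Kdm2a, an H3K36 demethylase, differed by 0.29 without overlap (adjusted p = 0.172). Kdm8 (0.14) and Kdm3b (0.12) were higher and Kdm1b (-0.20) lower without overlap, with adjusted p of 0.337 or more. For Kdm1a, the flavin-dependent H3K4 demethylase LSD1, the difference was -0.09 with overlap (95% interval -0.32 to 0.14). Kdm5b (0.15), Kdm4a (0.05), Kdm4b (-0.14), Kdm4c (0.05), Kdm3a (-0.05) and Kdm7a (-0.08) overlapped too.

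**Figure D3:**
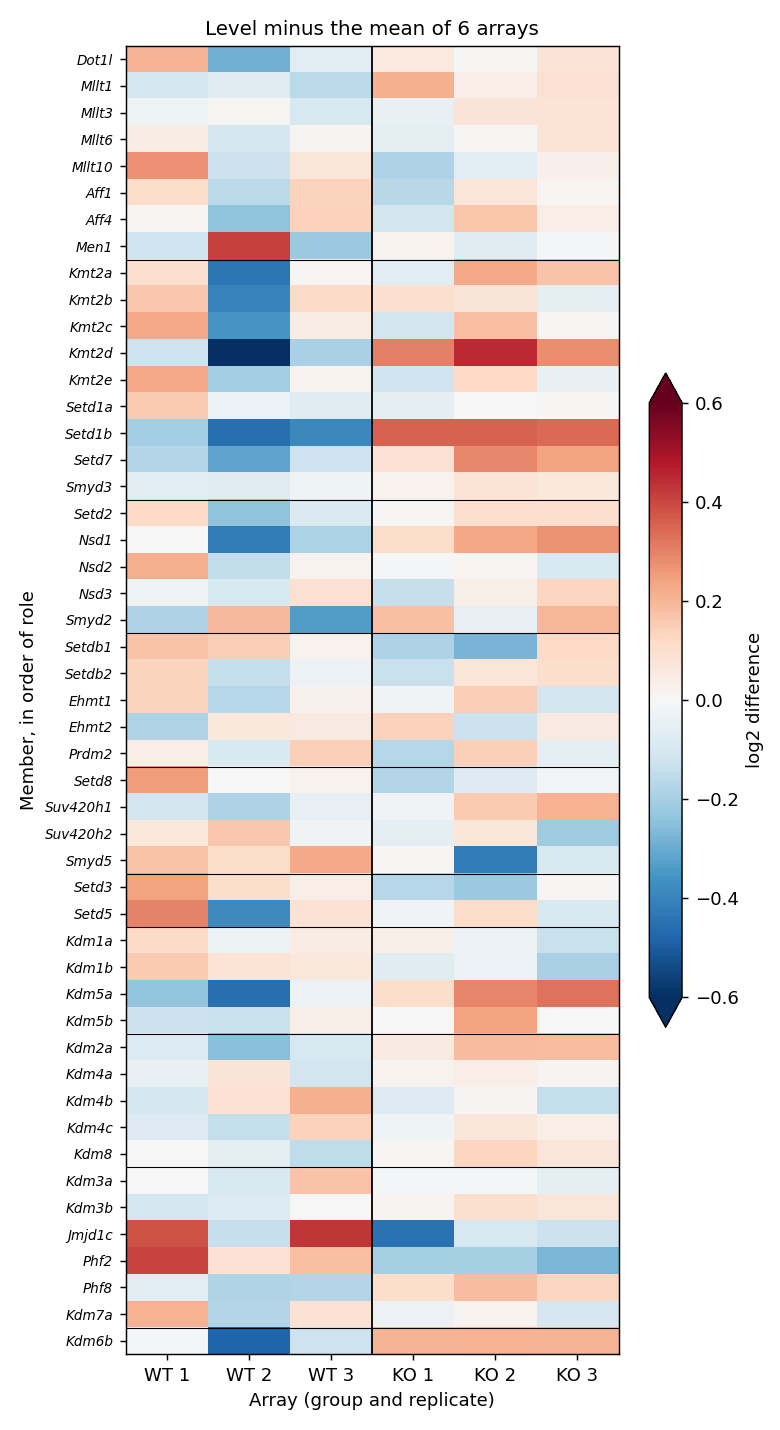
Each cell is a gene's deposited log2 level on 1 array minus its mean over the 6 arrays, with wild type arrays left and knockout-labelled arrays right of the line and horizontal lines between roles. Wild type array 2 holds many of the lowest values, among them those of Kmt2a, Kmt2b, Kmt2c, Kmt2d and Setd5, while Men1 is high there.

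Wild type array 2 stood apart from the others of its group in this set. It was the lowest wild type array in 35 of the 49 members (71.4%), against 34.1% of genes above background. Its median deviation from the mean of the other wild type arrays was -0.16 over the members and 0.03 over genes above background. In 14 members (28.6%) it read more than 0.3 below that mean, against 11.6% of genes above background. The largest dips were those of Setd5 (-0.58), Kmt2d (-0.55), Jmjd1c (-0.55), Kmt2b (-0.54), Kmt2c (-0.49) and Kmt2a (-0.49), and Men1 went the other way by 0.58. The median wild type SD of the members was 0.14, and the median knockout-labelled SD 0.08. On the knockout-labelled side array 1 was the lowest in 25 members (51.0%, against 34.9% of genes above background), with a median deviation of -0.06.

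The balance of directions in the set changed when this array was left out. It was singled out for its low values in these same members, so leaving it out lowers most differences by construction. Wild type array 1 was the highest of its group in 27 members, and the balance without it was not counted. With array 2, 29 of 49 members (59.2%) had a positive difference and the median was 0.04. Genes above background had 55.9% and a median of 0.04. Without array 2, 21 of 49 (42.9%) were positive with a median of -0.02, against 57.8% and 0.05 of genes above background. The number also moved with the scaling, to 22 positive when arrays were quantile normalized again, 24 when medians of all probe sets were equalised and 30 when medians of the tested genes were. The groups did not overlap in 18 members, 13 higher and 5 lower (36.7%). That share was 23.5% over all genes, with 13.7% higher and 9.78% lower, and 33.8% in genes above background, with 22.6% higher and 11.2% lower. Without wild type array 2 the groups did not overlap in 16 members upward and 13 downward (32.7% and 26.5%, against 31.1% and 17.6% of genes above background), and Kmt2d, Setd1b, Phf2 and Jmjd1c passed, the last pair as lower. An unadjusted p under 0.05 was found for 13 members (26.5%), against 18.0% of all genes and 27.4% of genes above background.

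**Figure D4:**
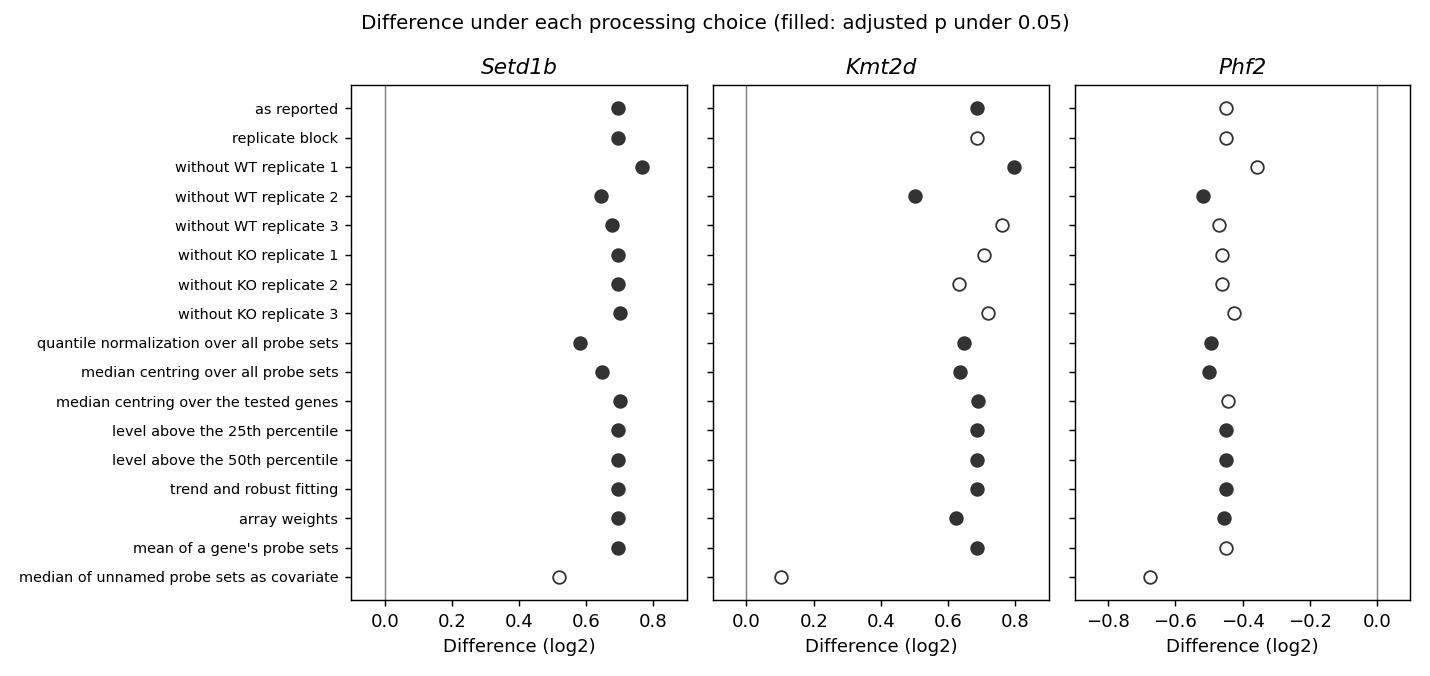
Log2 difference between knockout-labelled and wild type arrays for Setd1b, Kmt2d and Phf2 as reported and under each of 16 alternatives, with filled points where the adjusted p of limma was under 0.05. Setd1b is filled in all but the covariate fit, Kmt2d in 10 of the alternatives and Phf2 in 7, and no point crosses 0.

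In each of 4 further lists, of genes that work with these enzymes and of further enzymes of the same kind, 0 genes passed. Over all genes 5.50% passed, and 9.95% of those above background, so 0 in lists this short does not set them apart. In the list of transcription elongation partners 0 of 14 measured genes rose or fell (median 0.00). Ccnt1, encoding the cyclin T1 subunit of the P-TEFb kinase, was lower without overlap (-0.50, SE 0.13, adjusted p = 0.0686), and Ell differed by -0.30 (adjusted p = 0.157). Among 10 genes of H2B ubiquitination, a mark that stimulates DOT1L, 0 passed (median -0.03), and the ligase genes Rnf20 (0.02) and Rnf40 (-0.03) overlapped between groups. The smallest p there belonged to the deubiquitinase genes Usp49 (0.39, adjusted p = 0.326) and Usp22 (-0.21, adjusted p = 0.347).

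Subunits shared by the KMT2 and SETD1 complexes likewise gave 0 of 12 (median 0.07). Hcfc1, a host cell factor subunit, read 8.28, 8.11 and 8.18 in wild type and 8.54, 8.54 and 8.61 in knockout-labelled arrays, without overlap (0.38, SE 0.10, adjusted p = 0.0631). Cxxc1, the CpG-binding subunit of the SETD1 complexes, was lower (-0.29, adjusted p = 0.158), and the core subunit genes Wdr5 (-0.11), Rbbp5 (0.08) and Ash2l (0.07) overlapped. Of 17 other lysine methyltransferase and demethylase genes 0 passed (median -0.08), with the X-linked demethylase gene Kdm5c (0.41, adjusted p = 0.0992) and the Polycomb methyltransferase gene Ezh1 (-0.33, adjusted p = 0.120) at the smallest p.

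Some genes listed as markers of other cell types or of dividing cells differed between the same arrays. Which cells made these transcripts was not measured. For comparison, 4.30% of all genes rose and 1.20% fell, and 7.87% and 2.08% of genes above background. Of 15 genes of dividing cells 4 rose (Ccna2 0.88, Rrm2 0.72, Top2a 0.56 and Mcm6 0.42), 0 fell and 11 did not pass. Differences in that list ran from -0.05 (Cdk1) to 0.90 (Mki67), with a median of 0.30. The mean level of the list was 6.24 to 6.31 in wild type and 6.55 to 6.66 in knockout-labelled arrays. Of 10 B cell markers 3 rose (Cd22 1.29, Ms4a1 1.13 and Cd79a 0.86) and Ighm fell (-0.60). Ighm was by far the brightest of them, at 10.9 to 11.1 in wild type and 10.3 to 10.4 in knockout-labelled arrays. Ms4a1 read 3.15 to 3.35 in wild type, under the background guide, and 4.21 to 4.67 in knockout-labelled arrays. The list mean was 4.71 to 4.96 against 5.06 to 5.32, and Cr2, Ebf1 and Pax5 were below the guide in both groups. Of 5 NK cell genes 2 rose (Gzma 2.08 and Klri2 0.78), with a list mean of 5.25 to 5.70 against 6.31 to 6.33. Klri2 was near the guide in wild type arrays (3.78 to 4.19).

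Of 7 dendritic cell markers Itgax rose (1.14) and 5 were below the guide in both groups. Cd209a did not pass (-0.37, adjusted p = 0.192) and read 7.85 to 8.37 in wild type and 7.62 to 7.81 in knockout-labelled arrays. The list mean was 4.14 to 4.28 against 4.20 to 4.38. Of 8 markers of monocytes, macrophages and neutrophils Itgam rose (0.60) and Mpo fell (-0.71), with 4 below the guide. Mpo read 4.15 to 4.83 in wild type and 3.77 to 3.88, near the guide, in knockout-labelled arrays. The list mean was 3.69 to 3.91 against 3.56 to 3.67. In the CD4 and regulatory T cell list Il2ra rose (0.69) and Cd40lg fell (-0.88). Cd40lg read 3.63 to 4.20 in wild type, near the guide, and 2.97 to 3.15 in knockout-labelled arrays, below it. The list mean was 4.94 to 5.03 against 4.82 to 4.84. Of 5 erythroid and platelet genes 0 passed (list mean 3.68 to 3.93 against 3.63 to 3.94). In the CD8 T cell list Cd5 fell (-1.01) and 5 of 6 did not pass (10.8 to 10.9 against 10.6). Whether the numbers of such cells differed was not tested, nor was their part in the differences of Setd1b and Kmt2d. In bulk RNA fewer cells of a type and less RNA per cell cannot be told apart.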

How the data were processed

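Total RNA of mouse CD8+ T cells from 3 wild type and 3 Dot1l knockout samples was measured on Affymetrix whole-transcript arrays. The deposited values are log2 expression values that the authors made by RMA; the submitters' processing notes name R 3.1.1. Settings of RMA, annotation and build: not given in the sources used here. Values lay between 1.03 and 12.9 and array medians between 3.69 and 3.78. Of 41345 probe sets 23521 named 1 gene symbol in the platform annotation, 1814 named several and 16010 none. Of the first, 23328 were found in the RefSeq gene table by gene identifier.

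Each gene kept its brightest probe set by mean over the 6 arrays, which gave 22180 genes, of which 49 of the 52 listed were measured. Setd8, Suv420h1 and Suv420h2 were found under the names Kmt5a, Kmt5b and Kmt5c. Knockout-labelled minus wild type differences were tested by limma (version 3.58.1, under R 4.3.3), using lmFit and plain eBayes with no covariate, with Benjamini-Hochberg adjustment over all genes. The fit was also run on simulated arrays with independent noise and no array effects. That run checks the code and not how the fit behaves on these data. Values per array are given for DOT1L and its partners, members that passed and the 6 with the smallest p that did not; Jmjd1c, Smyd5 and Hcfc1 were added after their values were seen. From each further list, genes that passed are named, or else the 2 with the smallest p; Rnf20, Rnf40, Wdr5, Rbbp5 and Ash2l lie outside that rule. The members, lists, motifs and tests were chosen with earlier results of these data known. Alternatives were a replicate block, leaving out arrays, rescaling, level filters, array weights, robust fitting with a trend, averaged probe sets, a covariate and other thresholds. The labels state no batch or pairing, so replicate numbers were not used as pairs. Same-numbered arrays did not deviate together (correlations of -0.07, -0.16 and -0.07).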

Additional observations from a re-analysis of the deposited data

How the results depend on the processing

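The number of members that passed was 2 as reported. It was 3 after another quantile normalization, after median centring over all probe sets, with array weights and above the 25th percentile of level, where Phf2 joined. It was 5 above the 50th percentile of level and also 5 at an adjusted p under 0.10, 7 with trend and robust fitting, 1 with the replicate number as a block, 1 with the covariate (Jmjd1c at -1.13, adjusted p = 0.0445, in place of the others) and 1 at an adjusted p under 0.01. Leaving out each array gave 1 to 4 members. Over all genes 1220 passed as reported, 615 to 1307 without 1 array, 216 with the covariate and 534 at an adjusted p under 0.01. With the replicate block 912 genes passed and Kmt2d did not (adjusted p = 0.0589). Setd1b passed in 15 of 16 alternatives and Kmt2d in 10, each with the same direction throughout. Dot1l and its partners passed in 0 of 16 alternatives each, and the sign of Dot1l turned in 2 of them (lowest difference -0.26, with the covariate). With 3 arrays per group, the median SE of the members was 0.12 on the log2 scale. The cause of these shifts was not tested.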

Other observations

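Probe sets of the members outside the tests gave values close to background. The other probe set of Kdm6b read 3.78, 4.13 and 3.81 in wild type (3.91 ± 0.19, SD, n = 3) and 4.12, 3.81 and 4.02 in knockout-labelled arrays (3.99 ± 0.16, n = 3), with wild type array 2 the highest. This is a difference of 0.08 (limma adjusted p = 0.827 over all probe sets with 1 symbol), beside 0.41 for the probe set used. A probe set that names both Kdm7a and 4930599N23Rik read 3.69, 3.13 and 3.74 in wild type and 3.75, 3.66 and 3.79 in knockout-labelled arrays, with wild type array 2 the lowest.

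The spread between arrays differed widely among members. In knockout-labelled arrays Kdm6b had an SD of 0.0022 and Setd1b of 0.0076, and Smyd5 had the largest at 0.22. In wild type arrays the SD ran from 0.026 for Smyd3 to 0.35 for Setd5. The wild type SD was the larger one in 34 of 49 members and in 7386 of 11389 genes above background.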
